A study of Homo sapiens and Mus musculus with 22 samples.

Results

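Gene expression in H69M, an MHC class I high derivative of a small cell lung cancer line, was compared with that of its parent H69 across all genes of the deposited table. NCI-H69 (H69) is an established human small cell lung cancer (SCLC) line. The labels give it as low or negative for MHC class I, the surface complex that shows peptides to cytotoxic T cells. H69M is labelled MHC class I high and as derived from H69 in the way Canadas and colleagues described. Both groups were sequenced unsorted, with no agent named for either in the labels. The comparison used 6 of the 22 libraries of the series, 3 of H69 and 3 of H69M, chosen by the sample labels. Of 25435 genes in the table, 15445 had enough counts to be tested. H69M is a single derived line, so a difference from H69 cannot be told apart from what is particular to that derivation. The labels do not say that replicates were separate cultures, so the spread behind the p-values may be technical. The other libraries of the table are sorted PD-L1 high and PD-L1 low fractions of H69M, and their means are given only beside genes that were silent in 1 of the unsorted lines and, in a plot, beside MT1X, MT2A and ADCY1.

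SCLC is a neuroendocrine cancer. Its classic cells grow as floating clusters, express neuronal and secretory granule genes under factors such as INSM1 and NEUROD1, and hold very little MHC class I. Non-neuroendocrine SCLC cells adhere and spread, express the Hippo pathway coactivators YAP1 and TAZ, vimentin and matrix genes, and respond to interferon. MHC class I needs a heavy chain (such as HLA-B or HLA-C), the light chain B2M, proteasomes that cut peptides and the TAP transporter that brings peptides into the endoplasmic reticulum. In bulk libraries such as these, fewer cells that express a gene and less RNA per cell cannot be told apart.

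Libraries held 12814594 to 26834561 counts in H69 and 19905007 to 25806038 in H69M. H69 replicate 3 was the shallowest, and it differed most from the others of its group (chi-square per degree of freedom over genes 7.33 and 8.03, against 3.72 to 4.72 for the remaining pairs of replicates). Levels are given in library order as CPM, a gene's counts relative to the size of its library, with sizes adjusted by TMM. Counts grow with transcript length, so tests compared libraries, and an order of genes by CPM is not an order by transcript number. The libraries were made by exome capture, so CPM may also depend on how well a transcript was captured, which was not tested. A gene was called when its adjusted p was under 0.05 (edgeR quasi-likelihood F-test, Benjamini-Hochberg over all genes tested), and only called genes are described as having risen or fallen. Log2 fold changes are H69M minus H69, ± SE, with 3 libraries in each group, and are marked log2.

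The derivative differed from its parent in 72.5% of all genes tested. Of the 15445 genes, 5540 (35.9%) were called higher and 5656 (36.6%) lower in H69M, and the median log2 fold change over all tested genes was -0.01. Counts of called list members below are to be read beside these shares. The libraries of the 2 lines did not overlap in 72.9% of genes tested. The counts of rises and falls were close, but their sizes were not. Of the genes called and changed at least 2-fold, 2349 (15.2% of those tested) were higher and 1320 (8.55%) lower. At 16-fold or more 728 were higher and 165 lower, and at 64-fold or more 363 were higher and 58 lower. The filter for testing also used the sorted H69M fractions, so a gene near 0 in H69 could enter the test through them. In a fit on only the compared groups 14787 genes were tested and 3326 were called and at least 2-fold. The direction of these was not counted. For genes at or near 0 in one group the fitted fold depends on the count added for the fit, so genes at 0 are given below with bounds. The plot of fold change against level shows more red than blue points at large folds.

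**Figure D1:**
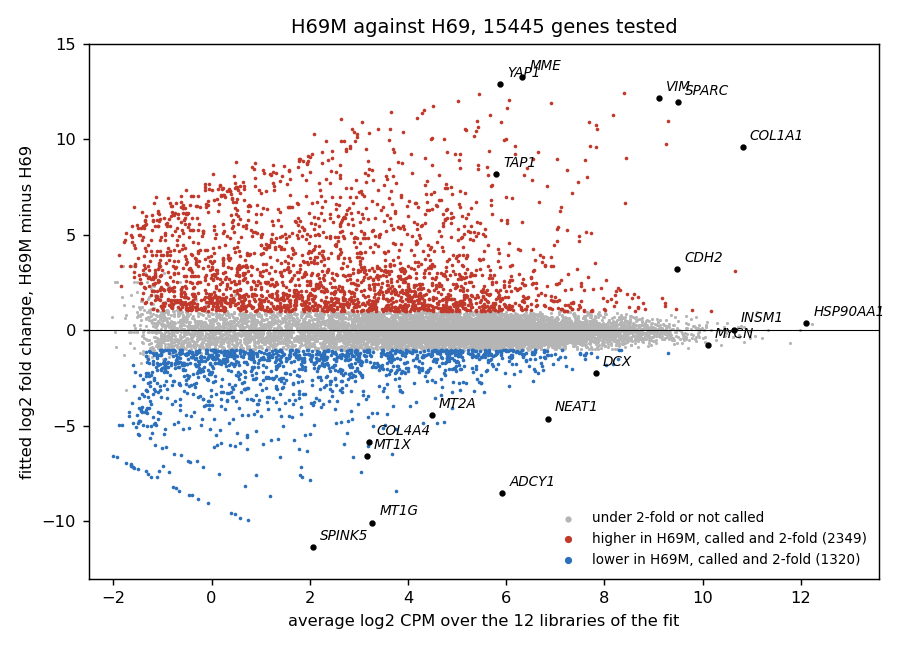
Fitted log2 fold change of H69M minus H69 (y axis) against average log2 CPM (x axis) for 15445 tested genes, with 1 point per gene. Red marks the 2349 genes called higher and at least 2-fold, blue the 1320 called lower and at least 2-fold, grey the rest, and black points are named genes.

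A set of 233 genes was switched on in H69M, with at most 3 counts summed over the 3 H69 libraries and a mean of at least 1 CPM in H69M. Their median level in H69M was 3.00 CPM, 40 of them reached 10 CPM, and 104 had no count in any H69 library. COL6A2, a chain of the microfibril-forming collagen VI, stood at 0, 0.0755 and 0.0807 CPM in H69 and 281, 302 and 293 CPM in H69M. CD109, a membrane-anchored co-receptor that binds TGF-beta, stood at 0.0402, 0 and 0 CPM in H69 and 82.7, 82.2 and 84.7 CPM in H69M, 5307-fold higher (95% limits from counting error 952 and 209643). All H69M libraries lay far above all H69 libraries for both genes.

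The cell surface peptidase MME (neprilysin) had no count in H69 and stood at 59.5, 61.3 and 59.9 CPM in H69M, which is at least 1279-fold higher against a floor of 3 counts over the H69 group. The smooth muscle protein calponin, CNN1, stood at 0, 0 and 0.0807 CPM in H69 and 57.4, 53.7 and 52.4 CPM in H69M. The prolyl hydroxylase LEPREL1, which modifies collagen, had 0.0805, 0 and 0.0807 CPM in H69 and 53.98, 53.7 and 54.2 CPM in H69M. SERPINB6, an inhibitor of intracellular proteases, rose from at most 3 counts to 43.2, 46.6 and 42.5 CPM in H69M. IGF2BP2, an RNA-binding protein of growth control, stood at 0.0402, 0 and 0 CPM in H69 and 34.3, 37.5 and 34.05 CPM in H69M, and IGFBP7, a secreted binder of insulin-like growth factors, at 0, 0.0378 and 0 CPM in H69 and 42.9, 42.1 and 41.7 CPM in H69M. CAV2, a coat protein of caveolae, was at 0 in H69 and at 35.7, 31.6 and 32.9 CPM in H69M.

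Most of these genes were also found in the sorted PD-L1 high cells, where 229 of the 233 reached 1 CPM. Of the 233, 220 had a higher mean in the PD-L1 high than in the PD-L1 low fraction, and 223 had an H69M level between those of the 2 fractions. Since the fractions were sorted from H69M, a level between them can be expected of any gene. Neither count was made over all genes tested. In the PD-L1 low fraction 52 reached 1 CPM. The median gene of the set stood in unsorted H69M at 24.7% of its level in the PD-L1 high fraction. In 13 genes the PD-L1 low fraction was the higher one. The neural adhesion gene SLITRK2, chosen after its values were seen, lacked counts in H69 and stood at 17.3, 17.7 and 16.4 CPM in H69M, with means of 21.8 CPM in the PD-L1 low and 10.97 CPM in the PD-L1 high fraction. PAX3, a neural crest transcription factor chosen in the same way, lacked counts in H69 and stood at 13.04, 13.3 and 12.9 CPM in H69M, with fraction means of 6.23 and 4.53 CPM. Both were without a count in the parent and present in each kind of derivative library.

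Far fewer genes, 46, were switched off by the same rule, with a median H69 level of 1.89 CPM and 16 without a count in H69M. All 46 also stood under 1 CPM in both sorted fractions. The one with the highest CPM in H69 was MT1G, a metallothionein, 1 of the small cysteine-rich proteins that bind zinc and copper. MT1G stood at 34.4, 36.7 and 42.7 CPM in H69 and 0.0449, 0.0498 and 0 CPM in H69M, 1267-fold lower (95% limits from counting error 350.3 and 10466). SPINK5, a serine protease inhibitor of epithelia, stood at 15.7, 14.3 and 18.3 CPM in H69 and had no count in H69M, at least 367-fold lower. CYBA, the p22phox subunit of NADPH oxidases, fell from 8.57, 7.93 and 8.80 CPM in H69 to at most 1 count. The cadherin CDH22, the matrix protein SMOC2, the pancreatic homeobox factor PDX1 and the heparan sulfate sulfotransferase HS6ST2 had no count in H69M. They were at least 135-fold, 127-fold, 108.8-fold and 108-fold lower. The potassium channel partner DPP10 stood at 5.43, 5.44 and 6.86 CPM in H69, the RNA-binding protein CELF2 at 3.30, 4.04 and 4.28 CPM in H69 and VWA5B1 at 3.58, 3.32 and 2.502 CPM in H69, with at most 1 count each in H69M. Reads of DPP10 and of its antisense gene cannot be told apart here, since the use of strand in counting is not given in the sources used here.

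**Figure D2:**
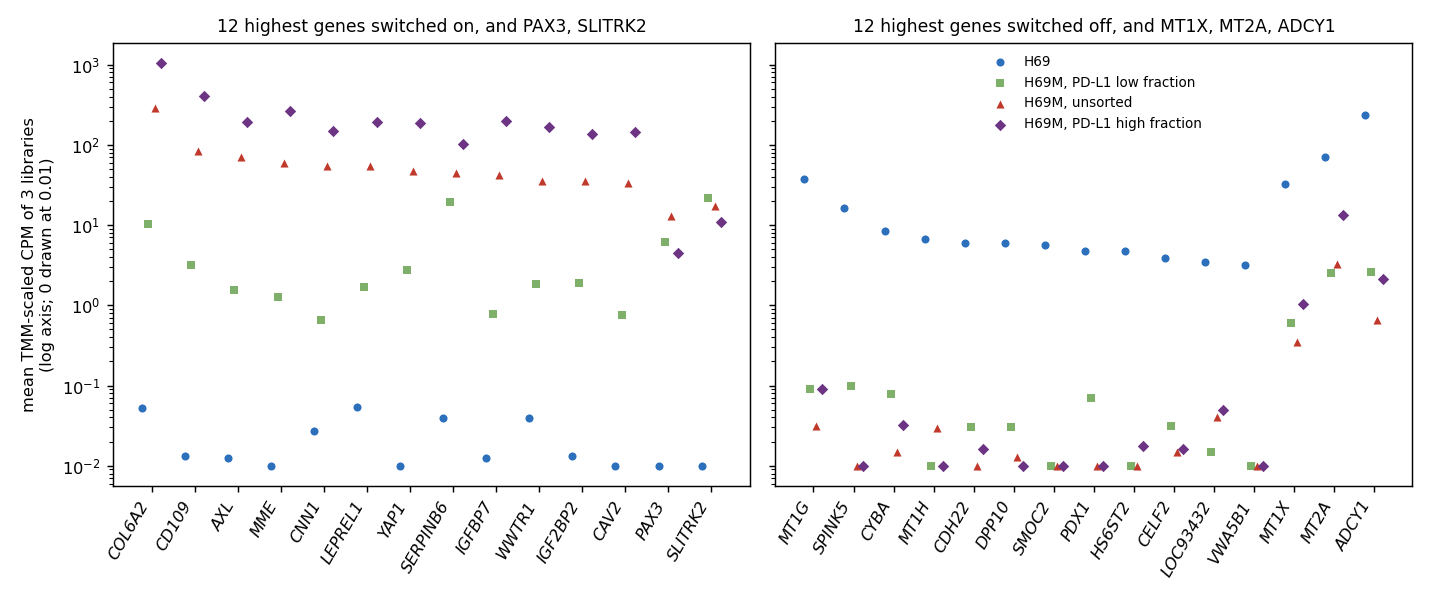
Mean CPM (log axis, 0 drawn at 0.01) of the 12 genes with the highest CPM switched on (left, with PAX3 and SLITRK2) and switched off (right, with MT1X, MT2A and ADCY1) in H69, the PD-L1 low fraction, unsorted H69M and the PD-L1 high fraction, 3 libraries each. Genes switched on lie highest in the PD-L1 high fraction except PAX3 and SLITRK2, and genes switched off are low in all 3 kinds of H69M library.

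Metallothionein genes fell together. They are induced by zinc and cadmium through the metal-sensing factor MTF1, which reads short metal response elements in their promoters. Besides MT1G, MT2A stood at 65.8, 67.6 and 79.6 CPM in H69 and 3.37, 4.13 and 2.45 CPM in H69M, a log2 fold change of -4.44 ± 0.13. MT1X stood at 32.1, 32.8 and 33.8 CPM in H69 and 0.405, 0.398 and 0.23 CPM in H69M (-6.59 ± 0.15 log2), and MT1F at 5.39, 5.66 and 5.57 CPM in H69 and 0.18, 0.199 and 0 CPM in H69M. MT1H fell from 7.16, 6.53 and 6.62 CPM in H69 to 2 counts in all, and MT1E from 1.93, 2.98 and 1.94 CPM in H69 to 1 count. In every one of these 6 genes all H69M libraries lay below all H69 libraries. Of the 7 metallothionein genes tested 6 were called lower, with a median log2 fold change of -6.59. The seventh, MT3, was near 0 in both lines (0.0805, 0.415 and 0.242 CPM in H69 and 0.135, 0.0498 and 0.0765 CPM in H69M, adjusted p = 0.0663, or 0.0121 without H69 replicate 1). The level of MTF1 itself was 15.9, 14.1 and 15.1 CPM in H69 and 15.1, 14.8 and 15.6 CPM in H69M (log2 fold change 0.02 ± 0.09, adjusted p = 0.847). MT1 genes are near copies of each other, and how reads shared between them were counted is not given in the sources used here, which leaves the split between them uncertain. Expressed metallothionein promoters are shown because these genes moved together. The sequences are from RefSeq, build GRCh38.p14, 5′ to 3′ on the gene's strand, from 250 bases before the start to 50 after it, with metal response core letters in capitals (TGCACNC or TGCGCNC, on either strand).
MT2A promoter, chr16:56608334-56608633, plus strand: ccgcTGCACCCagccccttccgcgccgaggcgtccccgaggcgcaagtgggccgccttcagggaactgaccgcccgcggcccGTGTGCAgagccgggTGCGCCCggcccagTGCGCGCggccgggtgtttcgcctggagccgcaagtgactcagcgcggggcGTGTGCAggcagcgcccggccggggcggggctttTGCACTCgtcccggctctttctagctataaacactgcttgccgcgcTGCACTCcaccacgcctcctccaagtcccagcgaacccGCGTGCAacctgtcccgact
MT1X promoter, chr16:56682220-56682519, plus strand: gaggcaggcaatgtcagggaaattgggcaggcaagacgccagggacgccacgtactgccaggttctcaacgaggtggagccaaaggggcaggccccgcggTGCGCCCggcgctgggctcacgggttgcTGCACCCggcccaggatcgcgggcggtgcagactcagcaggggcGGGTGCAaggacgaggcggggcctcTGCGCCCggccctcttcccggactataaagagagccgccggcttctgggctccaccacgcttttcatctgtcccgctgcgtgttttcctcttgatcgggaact
The MT2A window held 6 matches of TGCACNC and 2 of TGCGCNC, and the MT1X window 2 of each. In the 12042 tested genes with such a window, 11.6% held the first form and 30.5% the second. All 3 metallothionein genes with a window held both. These letters were searched after the metallothionein values had been seen, and a match is a description, not a site.

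The antigen presentation genes rose unevenly. Of the 22 genes of the list, 16 were called higher, 3 lower and 3 neither, with a median log2 fold change of 1.35. HLA-B, a class I heavy chain, stood at 1.85, 2.11 and 1.21 CPM in H69 and 82.1, 78.4 and 74.1 CPM in H69M, and HLA-C, a heavy chain already present in the parent, at 46.5, 47.5 and 46.9 CPM in H69 and 198, 200.3 and 194 CPM in H69M (2.07 ± 0.06 log2, adjusted p = 4.85e-17). The nonclassical HLA-E, a ligand of natural killer cell receptors, stood at 1.01, 1.25 and 1.78 CPM in H69 and 20.7, 20.3 and 18.4 CPM in H69M (3.96 ± 0.15 log2). The libraries of the 2 lines did not overlap for any of these heavy chains, and HLA-B had the largest fold of the 3. Heavy chain genes share reads, so their separate values are uncertain.

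Several genes that make and move peptides rose as well. TAP1, a subunit of the peptide transporter, stood at 0.121, 0.227 and 0 CPM in H69 and 41.8, 42.8 and 45.2 CPM in H69M. The immunoproteasome subunit PSMB9 had no count in H69 and stood at 8.59, 9.504 and 9.18 CPM in H69M. The aminopeptidase ERAP2, which trims peptides to length, rose from 7.73, 8.54 and 8.72 CPM in H69 to 87.8, 85.1 and 83.8 CPM in H69M, a log2 fold change of 3.37 ± 0.09. Its relative ERAP1 rose by 1.23 ± 0.07 log2, and the proteasome activator subunits PSME1 and PSME2 by 1.29 ± 0.06 and 0.40 ± 0.05 log2. The 3 members that fell were the folding helpers of the endoplasmic reticulum that also serve many other proteins. CALR (calreticulin) changed by -0.50 ± 0.06 log2, PDIA3 by -0.41 ± 0.06 log2 and CANX (calnexin) by -0.32 ± 0.04 log2. HLA-F (1.42 ± 0.68 log2), TAPBPL (-0.04 ± 0.12 log2) and PSMB10 (-0.32 ± 0.16 log2), the third immunoproteasome subunit, did not pass the test (adjusted p = 0.0688, 0.756 and 0.0744). HLA-F was called higher without H69 replicate 2 or H69M replicate 1 (adjusted p = 0.0453 and 0.0356), and PSMB10 lower without H69 replicate 1 or H69M replicate 3 (adjusted p = 0.0418 and 0.0033) and with a replicate block (adjusted p = 0.034). HLA-F was also called by limma-voom (adjusted p = 0.0358).

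Promoters of this group are shown because class I genes are known to answer to interferon through interferon-stimulated response elements (ISRE) and to NF-kB. The source and window are those given above. Capitals mark the ISRE core (GAAA, any 2 bases, GAAA) and the NF-kB letters (GGGA, any 4 bases, CC), each searched on both strands and with overlaps merged.
PSMB9 promoter, chr6:32853942-32854241, plus strand: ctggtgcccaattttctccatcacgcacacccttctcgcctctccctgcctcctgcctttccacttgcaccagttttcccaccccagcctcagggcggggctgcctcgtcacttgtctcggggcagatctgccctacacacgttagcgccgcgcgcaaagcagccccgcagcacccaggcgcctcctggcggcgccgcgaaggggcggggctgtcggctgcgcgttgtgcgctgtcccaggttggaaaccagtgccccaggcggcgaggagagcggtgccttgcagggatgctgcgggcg
TAP1 promoter, chr6:32853655-32853954, minus strand: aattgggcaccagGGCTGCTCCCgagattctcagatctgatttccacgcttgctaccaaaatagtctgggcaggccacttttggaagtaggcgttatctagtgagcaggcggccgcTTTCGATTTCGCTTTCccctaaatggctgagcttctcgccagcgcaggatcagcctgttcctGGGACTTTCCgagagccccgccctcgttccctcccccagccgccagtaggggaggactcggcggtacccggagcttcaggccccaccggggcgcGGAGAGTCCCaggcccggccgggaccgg
HLA-B promoter, chr6:31357130-31357429, minus strand: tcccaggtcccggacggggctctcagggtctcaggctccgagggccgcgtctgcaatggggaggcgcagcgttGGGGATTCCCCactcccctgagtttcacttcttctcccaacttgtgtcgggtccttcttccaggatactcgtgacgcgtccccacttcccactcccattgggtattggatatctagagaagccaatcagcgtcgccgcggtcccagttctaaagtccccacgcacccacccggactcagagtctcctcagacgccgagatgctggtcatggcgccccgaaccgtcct
B2M promoter, chr15:44711267-44711566, plus strand: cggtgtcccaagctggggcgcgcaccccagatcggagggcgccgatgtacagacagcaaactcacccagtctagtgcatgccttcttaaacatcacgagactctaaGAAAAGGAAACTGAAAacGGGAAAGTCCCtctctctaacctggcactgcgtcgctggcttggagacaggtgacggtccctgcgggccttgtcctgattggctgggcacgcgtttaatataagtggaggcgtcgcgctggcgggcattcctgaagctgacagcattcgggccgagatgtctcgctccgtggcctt
PSMB9 and TAP1 point away from each other, and their windows meet at their upstream ends. In this pair the ISRE and NF-kB letters lay in the TAP1 window, with 2 ISRE cores and 3 NF-kB matches, and not in the PSMB9 window. B2M held 2 overlapping ISRE cores and 2 NF-kB matches, and HLA-B 2 overlapping NF-kB matches. The ISRE core was found in 9 of the 18 list members with a window (50%), against 2.72% of all tested genes with one. It was found in 4.41% of genes called higher at least 2-fold and in 2.19% of those called lower at least 2-fold. The NF-kB letters were in 38.9% of the list and in 30.8% of all windows. Among the interferon-stimulated genes described next, 26 of 40 windows (65%) held the ISRE core, a set added after the data had been seen.

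Interferon-stimulated and nucleic acid sensing genes, which build the antiviral state, had 45 of 53 tested members higher and 4 lower, with a median log2 fold change of 3.02. IFITM3, a membrane protein that blocks virus entry, stood at 0, 0.0378 and 0 CPM in H69 and 21.9, 25.4 and 20.1 CPM in H69M. The DNA sensor IFI16 stood at 0, 0.0378 and 0 CPM in H69 and 11.5, 11.5 and 11.8 CPM in H69M, and OAS2, which makes the messenger that activates RNase L, at 0, 0.0378 and 0 CPM in H69 and 7.78, 10.8 and 8.49 CPM in H69M. IFI44L and XAF1 had no count in H69 and were at least 195-fold and 85.8-fold higher. ISG15, a ubiquitin-like modifier, stood at 1.05, 0.453 and 0.404 CPM in H69 and 7.06, 6.77 and 7.27 CPM in H69M. The members that missed the call were TLR3, TRIM25, RSAD2 and APOL2, and RSAD2 (viperin), a strongly induced interferon gene in many cells, stood at 1.09, 1.32 and 1.37 CPM in H69 and 1.75, 1.84 and 1.26 CPM in H69M (adjusted p = 0.116, or 0.0329 without H69M replicate 3). Without H69 replicate 1 or H69M replicate 1, 2 members were lower. Receptors and signal carriers of interferon moved little, with 14 of 25 higher, 5 lower and only 3 of them changed 2-fold. Among these were IRF2 (1.95 ± 0.10 log2) and the feedback inhibitor SOCS1 (1.71 ± 0.17 log2). IRF1, a direct activator of class I genes, changed by -0.32 ± 0.09 log2.

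Cytokine and chemokine genes had 20 of 24 tested members higher and 3 lower, out of 34 in the list, with 7 switched on. The inflammatory cytokine IL1B had no count in H69 and stood at 6.65, 8.56 and 7.65 CPM in H69M, which is at least 162-fold higher. LIF, a cytokine of the interleukin 6 family, stood at 0, 0.0378 and 0 CPM in H69 and 5.30, 4.13 and 4.25 CPM in H69M, and IL33, an alarm cytokine of barrier cells, was at least 35.5-fold higher. CCL2, which draws monocytes, rose from 0.644, 0.68 and 0.888 CPM in H69 to 32.4, 31.3 and 32.02 CPM in H69M. Fallen members were TNF, CXCL8 and MIF. TNF, a main inflammatory cytokine, stood at 3.22, 2.61 and 2.74 CPM in H69 and 0.0899, 0.149 and 0 CPM in H69M, CXCL8 (interleukin 8) at 14.3, 14.3 and 13.2 CPM in H69 and 3.33, 3.53 and 3.21 CPM in H69M (-2.06 ± 0.12 log2), and MIF changed by -0.43 ± 0.06 log2. CXCL14 was not called (0.69 ± 0.41 log2, adjusted p = 0.143). Interleukin and cytokine receptors had 16 of 25 higher and 6 lower. The interleukin 1 receptor accessory chain IL1RAP stood at 0.0805, 0.0378 and 0.0807 CPM in H69 and 26.6, 23.7 and 26.01 CPM in H69M, and IL4R at 0.0402, 0.0378 and 0 CPM in H69 and 9.17, 9.01 and 8.68 CPM in H69M. Complement and coagulation genes had 18 of 21 higher and 3 lower. The complement inhibitor CFI stood at 0, 0.0755 and 0.161 CPM in H69 and 25.8, 26.3 and 24.8 CPM in H69M. The thrombin receptor F2R stood at 0.0805, 0.227 and 0.161 CPM in H69 and 81.9, 77.4 and 83.0 CPM in H69M, and its relative F2RL2 was at 0 in H69 and at least 545-fold higher.

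**Figure D3:**
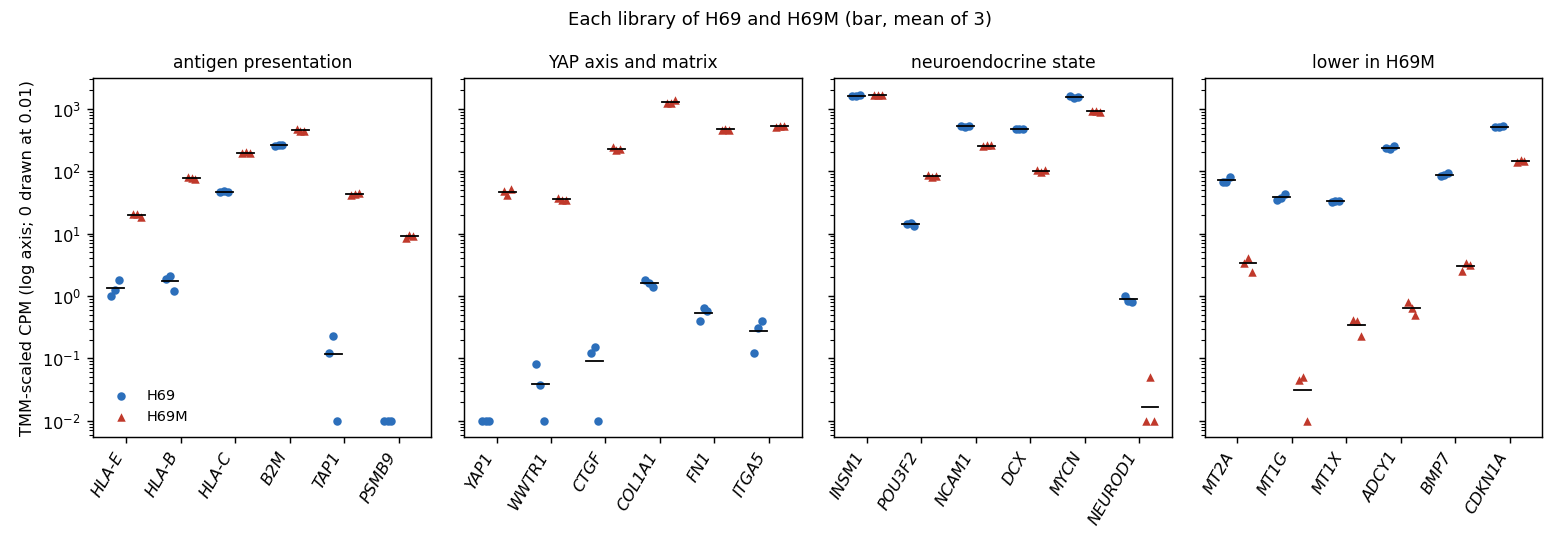
CPM of each library (log axis, 0 drawn at 0.01) for antigen presentation genes, genes of the YAP axis and matrix, neuroendocrine genes and genes lower in H69M; circles are H69, triangles H69M and bars the means of 3. Apart from INSM1, the libraries of the 2 lines do not overlap for any gene shown.

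Genes of the Hippo pathway, whose kinases hold YAP1 and TAZ out of the nucleus, had 19 of 24 tested members higher and 5 lower, with 3 switched on. YAP1 had no count in H69 and stood at 47.8, 40.9 and 51.2 CPM in H69M, which is at least 991-fold higher. WWTR1, which encodes TAZ, stood at 0.0805, 0.0378 and 0 CPM in H69 and 36.7, 34.9 and 34.5 CPM in H69M. TEAD2, a DNA-binding partner of both, stood at 0, 0.113 and 0.0807 CPM in H69 and 15.1, 17.2 and 14.2 CPM in H69M, and LATS2, the kinase that restrains them, was at 0 in H69 and at least 85.1-fold higher. AMOT, a scaffold that binds YAP1 in the cytoplasm, went the other way, at 56.1, 59.3 and 56.9 CPM in H69 and 12.4, 12.4 and 12.4 CPM in H69M (-2.21 ± 0.07 log2). Its relative AMOTL2, a known YAP1 target, rose by 6.38 ± 0.15 log2. The YAP and TAZ target list had 18 of 21 higher, with CDC42EP3 (-0.58 ± 0.05 log2) the 1 that fell, and TGFB2 (0.11 ± 0.06 log2) and NUAK2 (-0.08 ± 0.08 log2) not called (adjusted p = 0.111 and 0.372). Their median log2 fold change was 5.33.

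CTGF, a matricellular protein and a classic target, stood at 0.121, 0.151 and 0 CPM in H69 and 239.5, 215 and 227 CPM in H69M. CYR61 stood at 0.0402, 0.189 and 0.404 CPM in H69 and 33.2, 29.95 and 32.5 CPM in H69M, ANKRD1 was at 0 in H69 and at 12.2, 11.7 and 11.9 CPM in H69M, and AXL, a receptor tyrosine kinase, stood at 0, 0.0378 and 0 CPM in H69 and 67.5, 69.5 and 72.6 CPM in H69M. The promoter of CTGF is shown because it is the textbook TEAD target, with the TEAD letters GGAATG in capitals (both strands searched).
CTGF (RefSeq symbol CCN2) promoter, chr6:131951323-131951622, minus strand: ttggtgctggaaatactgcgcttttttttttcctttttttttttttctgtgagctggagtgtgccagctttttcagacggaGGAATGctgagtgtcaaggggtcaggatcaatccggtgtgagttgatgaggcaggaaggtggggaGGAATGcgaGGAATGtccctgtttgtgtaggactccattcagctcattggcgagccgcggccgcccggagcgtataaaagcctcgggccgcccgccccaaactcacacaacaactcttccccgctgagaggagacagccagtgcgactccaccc
This window held 3 matches. The letters were in 5 of 14 windows of the target list (35.7%), in 19.3% of the 181 windows of genes switched on, in 12.6% of genes called higher at least 2-fold and in 10.8% of all. Genes switched off held them in 7 of 32 windows (21.9%).

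Matrix and adhesion genes rose by large folds. Collagen chains had 23 of 36 tested members higher and 8 lower, with a median log2 fold change of 3.64, or 2.20 with genes at 0 in one group set to their bounds. COL1A1, the main chain of fibrillar collagen I, stood at 1.77, 1.62 and 1.37 CPM in H69 and 1217, 1236 and 1358 CPM in H69M, and COL1A2 at 147, 147 and 145 CPM in H69 and 1257, 1192 and 1357 CPM in H69M. COL5A3 and COL13A1 had no count in H69 and were at least 133-fold and 125-fold higher. The chains that fell included basement membrane collagens of the restricted kind. COL4A4 stood at 36.8, 32.6 and 29.9 CPM in H69 and 0.539, 0.597 and 0.574 CPM in H69M (-5.86 ± 0.14 log2) and its partner COL4A3 changed by -3.92 ± 0.32 log2, while COL4A1 and COL4A2, the general basement membrane pair, had no count in H69 and were at least 3.64-fold and 5.20-fold higher. The cartilage collagen COL2A1 was not called, at 774, 746 and 697 CPM in H69 and 652, 676 and 738 CPM in H69M (adjusted p = 0.109), but it was called lower without H69 replicate 3 or H69M replicate 3 (adjusted p = 0.0277 and 0.0297).

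Collagen-processing enzymes had 16 of 18 higher and 2 lower. The crosslinking oxidase LOXL2 stood at 1.21, 0.793 and 0.807 CPM in H69 and 144, 141 and 141 CPM in H69M, and the collagen chaperone SERPINH1 (HSP47) at 14.8, 14.8 and 17.7 CPM in H69 and 178, 189.5 and 176 CPM in H69M. Matrix glycoproteins and proteoglycans had 33 of 42 tested higher and 6 lower. SPARC, a collagen-binding matrix protein, stood at 0, 0.264 and 0.0807 CPM in H69 and 531, 533 and 519.8 CPM in H69M, fibronectin (FN1) at 0.402, 0.642 and 0.565 CPM in H69 and 463, 481 and 459 CPM in H69M and TGFBI at 0.241, 0.151 and 0.0807 CPM in H69 and 138, 144 and 131 CPM in H69M. FBLN1, a matrix glycoprotein, fell from 78.6, 80.6 and 86.2 CPM in H69 to 14.2, 14.2 and 13.2 CPM in H69M. Laminins, the sheet-forming proteins of basement membranes, had 9 of 11 higher. LAMA3, the chain that anchors epithelia, was the 1 that fell, at 156, 139 and 153 CPM in H69 and 29.4, 32.5 and 31.1 CPM in H69M (-2.27 ± 0.06 log2), although its partner LAMB3 was higher by 5.71 ± 0.19 log2. LAMB1 was not called (adjusted p = 0.102).

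Integrins, the receptors for this matrix, had 16 of 17 higher. ITGA5, the fibronectin receptor chain, stood at 0.121, 0.302 and 0.404 CPM in H69 and 506, 527 and 532 CPM in H69M, and its partner ITGB1 at 183, 189 and 207 CPM in H69 and 431, 433 and 399 CPM in H69M (1.13 ± 0.05 log2). ITGA6, a laminin receptor chain, was the 1 that fell, at 86.5, 87.7 and 89.8 CPM in H69 and 43.9, 50.1 and 47.7 CPM in H69M (-0.90 ± 0.06 log2). Matrix proteases and their inhibitors had 32 of 38 higher and 3 lower. MMP2, a gelatinase, stood at 12.4, 12.05 and 13.64 CPM in H69 and 114, 118 and 113 CPM in H69M, the inhibitor TIMP2 at 71.0, 70.2 and 74.5 CPM in H69 and 263, 272 and 277 CPM in H69M, and ADAMTS12 was at 0 in H69 and at least 195-fold higher. Actin and contractile genes had 36 of 44 higher and 4 lower, with a median log2 fold change of 0.94. The smooth muscle actin ACTA2 stood at 0.241, 0.378 and 0.161 CPM in H69 and 145, 139.9 and 134 CPM in H69M, CALD1 (caldesmon) at 0.121, 0.113 and 0.0807 CPM in H69 and 180.3, 166 and 177 CPM in H69M and TAGLN (transgelin) at 0.604, 0.982 and 0.404 CPM in H69 and 169, 150.2 and 157 CPM in H69M. The abundant ACTB rose only by 0.34 ± 0.05 log2. The members not called were TAGLN3, MYL6, ACTN4 and RDX.

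**Figure D4:**
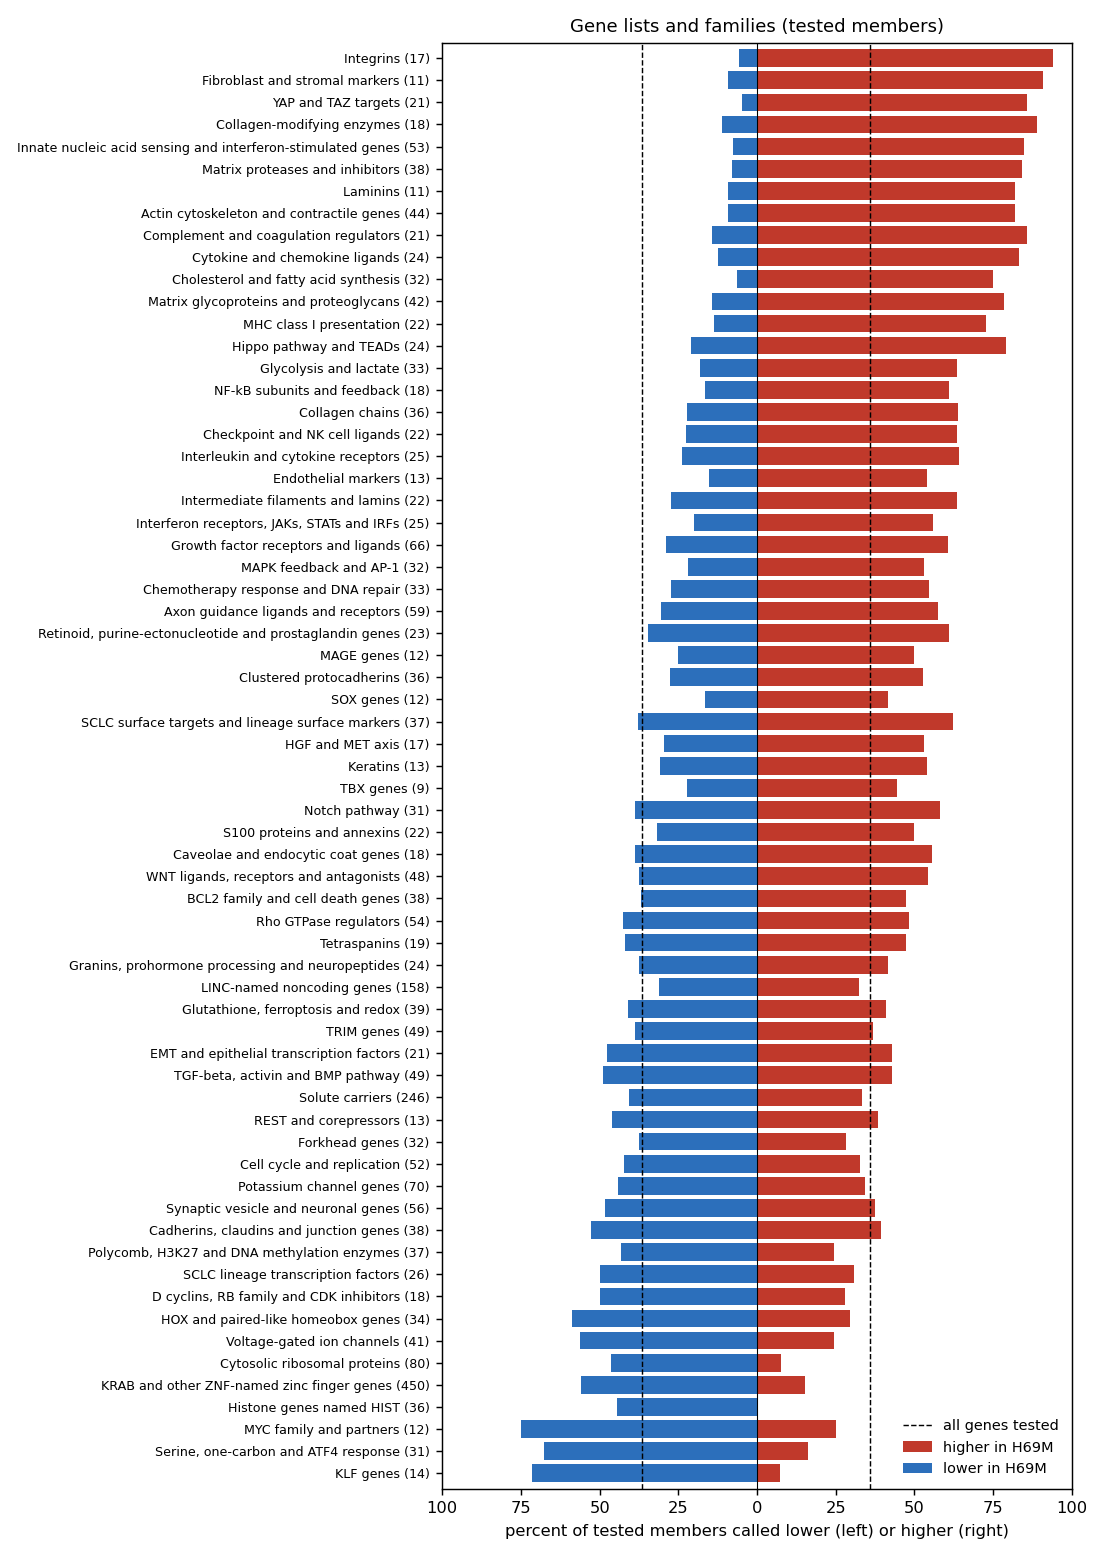
Percent of tested members called higher (right, red) and lower (left, blue) in H69M for each gene list or family with at least 8 tested members; dashed lines mark all genes tested (35.9% higher, 36.6% lower). Integrins, matrix, YAP target and interferon lists lie at the top, and KLF genes, the amino acid response and MYC partners at the bottom.

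Regulators of the epithelial-mesenchymal transition were split by call, but the larger changes were mostly rises. Of 21 tested factors 9 were higher and 10 lower, with a median log2 fold change of -0.08. By at least 2-fold 8 were higher and 2 lower, while 15.2% and 8.55% of all genes tested were. ZEB1 and ZEB2, repressors of epithelial genes, stood at 2.94, 2.64 and 2.58 CPM in H69 and 25.2, 27.3 and 25.7 CPM in H69M and at 0.926, 0.906 and 0.807 CPM in H69 and 17.8, 17.4 and 16.5 CPM in H69M. PRRX1, a mesenchymal homeobox factor, was at 0 in H69 and at least 567-fold higher. SNAI2 (Slug) fell, at 61.01, 61.9 and 75.4 CPM in H69 and 38.1, 33.9 and 34.2 CPM in H69M (-0.89 ± 0.07 log2), as did TWIST1 (-0.44 ± 0.07 log2), and SNAI1 was not called (adjusted p = 0.135). The epithelial factors given here fell or were not called. KLF4 changed by -2.05 ± 0.09 log2 and ELF3 by -0.74 ± 0.05 log2, while the splicing factor ESRP1 stood at 278, 286 and 273 CPM in H69 and 278, 257 and 260.3 CPM in H69M and was not called (adjusted p = 0.165).

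Cadherins, claudins and junction genes, a list that also holds CDH2 and CDH11, had 15 of 38 tested higher and 20 lower. These shares were 39.5% and 52.6%, against 35.9% and 36.6% of all genes tested. E-cadherin (CDH1) rose, at 26.9, 28.4 and 31.2 CPM in H69 and 51.2, 52.2 and 52.3 CPM in H69M (0.86 ± 0.07 log2), and N-cadherin (CDH2), its mesenchymal counterpart, rose at 80.6, 84.6 and 95.2 CPM in H69 and 818, 801 and 791 CPM in H69M (3.22 ± 0.06 log2). CDH11 stood at 0.121, 0.0755 and 0 CPM in H69 and 17.4, 16.7 and 17.1 CPM in H69M. EPCAM, an epithelial adhesion protein, stood at 236, 242 and 252 CPM in H69 and 233, 215 and 209.9 CPM in H69M (-0.15 ± 0.05 log2, adjusted p = 0.016). This call was lost without H69 replicate 3, H69M replicate 2 or H69M replicate 3 (adjusted p = 0.0503, 0.0622 and 0.0904). It was also lost with library totals as scaling, with no filter, and in a fit on only the compared groups without and with a replicate block (adjusted p = 0.0626, 0.0787, 0.0699 and 0.159). The fall of the desmosome protein DSP was larger (-0.75 ± 0.05 log2). Among intermediate filaments, with 14 of 22 tested higher and 6 lower, vimentin (VIM) stood at 0, 0.189 and 0.0807 CPM in H69 and 465, 462 and 450.0 CPM in H69M. Of 13 tested keratins 7 were higher and 4 lower, 3 of the latter by at least 2-fold. KRT18 rose by 1.23 ± 0.07 log2 and KRT8 by 0.39 ± 0.06 log2, KRT19 changed by -1.02 ± 0.06 log2 and KRT9 by -3.60 ± 0.12 log2, and KRT7 was not called (adjusted p = 0.0844, or 0.0484 in a fit on only the compared groups). Neurofilament light (NEFL) rose by 5.77 ± 0.18 log2. KRT81 and KRT86 are near copies of each other and are not given apart. CD44, a hyaluronan receptor of mesenchymal and progenitor cells, stood at 80.6, 80.9 and 91.3 CPM in H69 and 174, 174 and 161 CPM in H69M (1.02 ± 0.06 log2).

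S100 proteins and annexins had 11 of 22 tested higher and 7 lower. ANXA1, a calcium-dependent membrane-binding protein, stood at 4.35, 4.19 and 6.05 CPM in H69 and 110.1, 106 and 91.5 CPM in H69M. In contrast S100A6, S100A11 and S100A14 fell. S100A6 stood at 199, 233 and 242 CPM in H69 and 70.8, 63.3 and 66.5 CPM in H69M (-1.74 ± 0.08 log2), and S100A14 at 14.2, 13.596 and 16.9 CPM in H69 and 0.539, 0.249 and 0.574 CPM in H69M (-4.96 ± 0.21 log2). Among caveolar and endocytic coat genes, 10 of 18 tested were higher and 7 lower (55.6% and 38.9%). CAV1 stood at 0.121, 0.0378 and 0.161 CPM in H69 and 190.2, 160.4 and 177 CPM in H69M, and PTRF (cavin-1) at 1.13, 1.17 and 2.58 CPM in H69 and 128, 128 and 129.7 CPM in H69M.

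Factors that define SCLC lineages changed in both directions. Of 26 tested, 8 were higher and 13 lower. By at least 2-fold 4 were higher and 2 lower, a share close to the 23.8% of all genes tested. INSM1, a repressor that marks neuroendocrine cells, stood at 1606, 1597 and 1679 CPM in H69 and 1677, 1679 and 1679.7 CPM in H69M and was not called (adjusted p = 0.39), and neither were SOX2, SOX4, FOXA2 and NHLH1. NEUROD1, which marks a subtype, was low in H69 and fell to 1 count, at 1.01, 0.831 and 0.807 CPM in H69 and 0, 0.0498 and 0 CPM in H69M, and POU2F3, the tuft cell factor, had too few counts to be tested. The neuronal factors POU3F2 and SOX11 rose, POU3F2 from 14.3, 14.6 and 13.3 CPM in H69 to 87.0, 80.8 and 82.7 CPM in H69M and SOX11 from 29.98, 30.9 and 24.5 CPM in H69 to 161, 150.0 and 181 CPM in H69M. NEUROG2, a proneural factor, rose by 2.14 ± 0.06 log2, and NKX2-1, of lung and forebrain, by 2.00 ± 0.06 log2.

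REST, which represses neuronal genes, had 1 count in H69 and stood at 10.1, 9.30 and 10.4 CPM in H69M, 635-fold higher (95% limits from counting error 114 and 25135). SRRM4, the splicing factor that makes REST inactive in neurons, rose in the same libraries, at 5.67, 3.44 and 4.28 CPM in H69 and 15.96, 17.8 and 18.1 CPM in H69M (1.95 ± 0.13 log2). Synaptic and neuronal genes had 21 of 56 tested higher and 27 lower, 5 higher and 8 lower by at least 2-fold. The called shares were 37.5% and 48.2%, against 35.9% and 36.6% of all genes tested. DCX, a microtubule protein of migrating neurons, fell from 482, 474 and 466 CPM in H69 to 103, 96.9 and 104 CPM in H69M, and the vesicle calcium sensor SYT4 from 232, 263 and 241 CPM in H69 to 63.8, 51.6 and 57.3 CPM in H69M. RAB3B, a vesicle GTPase, rose from 74.5, 69.1 and 74.2 CPM in H69 to 308, 323 and 356 CPM in H69M. Granins, prohormone enzymes and neuropeptides had 10 of 24 tested higher and 9 lower. These shares, 41.7% and 37.5%, were also near those of all genes tested. The convertase PCSK1 rose by 0.65 ± 0.05 log2, gastrin-releasing peptide (GRP) changed by -0.79 ± 0.07 log2, neurotensin (NTS) by -1.95 ± 0.09 log2, and CHGB was not called (adjusted p = 0.75).

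Ion channel genes leaned lower. Of 41 tested voltage-gated channel genes 10 were higher and 23 lower, 14 of them by at least 2-fold, with a median log2 fold change of -0.48. CACNA1D, the calcium channel of secretory and pacemaker cells, stood at 14.2, 12.6 and 12.1 CPM in H69 and 0.135, 0.149 and 0.191 CPM in H69M (-6.29 ± 0.21 log2). The abundant KCNA1 fell only by 0.32 on the log2 scale. Axon guidance genes leaned higher, with 34 of 59 tested higher and 18 lower. The guidance ligand SLIT3 stood at 0.161, 0.151 and 0.0807 CPM in H69 and 23.01, 21.2 and 21.8 CPM in H69M, and NTN4 at 0.765, 1.10 and 1.61 CPM in H69 and 40.6, 36.2 and 35.7 CPM in H69M. The receptor ROBO1 was not called (-0.10 ± 0.05 log2, adjusted p = 0.0685).

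Surface proteins pursued as SCLC targets moved in both directions, with 23 of 37 tested genes of that list higher and 14 lower. These shares were 62.2% and 37.8%, against 35.9% and 36.6% of all genes tested. DLL3, the inhibitory Notch ligand, rose from 35.9, 36.5 and 36.9 CPM in H69 to 65.0, 66.8 and 73.9 CPM in H69M (0.91 ± 0.07 log2). SEZ6, a neuronal membrane protein, fell from 408, 373 and 431 CPM in H69 to 142, 165 and 158 CPM in H69M (-1.38 ± 0.07 log2). NCAM1 (CD56) stood at 534, 515 and 520.3 CPM in H69 and 249, 258 and 261 CPM in H69M (-1.03 ± 0.04 log2), the somatostatin receptor SSTR2 changed by -0.99 ± 0.05 log2, and SSTR5 fell from 2.66, 2.30 and 2.18 CPM in H69 to 1 count. EPHA2 stood at 1.09, 0.718 and 0.726 CPM in H69 and 43.4, 43.2 and 46.1 CPM in H69M, and the adenosine-making ectoenzyme NT5E (CD73) at 3.58, 3.10 and 3.95 CPM in H69 and 145, 137 and 136 CPM in H69M. CD274, which encodes PD-L1, stood at 0.0402, 0.113 and 0.0807 CPM in H69 and 4.85, 3.73 and 3.48 CPM in H69M.

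Ligands of checkpoint and natural killer cell receptors had 14 of 22 tested members higher and 5 lower. PDCD1LG2, which encodes the second PD-1 ligand PD-L2, lacked counts in H69 and reached 6.56, 5.42 and 5.70 CPM in H69M, which is at least 125-fold higher. IDO1, which depletes tryptophan, was at least 60.4-fold higher, and TDO2, an enzyme of the same step, at least 11.2-fold. The checkpoint ligand VISTA (C10orf54) stood at 0.0402, 0.0378 and 0 CPM in H69 and 6.65, 5.82 and 7.42 CPM in H69M. Ligands of the activating natural killer cell receptor NKG2D were split. ULBP1 stood at 2.82, 2.98 and 2.42 CPM in H69 and 0.135, 0.249 and 0.421 CPM in H69M (-3.31 ± 0.27 log2), and NCR3LG1 (B7-H6), a ligand of another activating receptor, at 72.8, 69.7 and 79.3 CPM in H69 and 31.5, 36.0 and 32.9 CPM in H69M (-1.14 ± 0.07 log2). RAET1G rose, at 0.0402, 0.0378 and 0 CPM in H69 and 0.18, 0.249 and 0.268 CPM in H69M, MICB fell by 0.59 on the log2 scale, and MICA, RAET1E and ULBP2 were not called.

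NF-kB subunits and feedback genes had 11 of 18 higher and 3 lower. NFKB1, the p50 subunit, rose by 1.53 ± 0.09 log2, NFKB2 by 1.09 ± 0.12 log2 and the nuclear cofactor BCL3 by 2.43 ± 0.20 log2. RELA, the main activating subunit, changed by -0.38 ± 0.06 log2 and the inhibitor NFKBIA by -0.43 ± 0.07 log2. TNFAIP3 and the kinases CHUK, IKBKB and MAP3K14 were not called.

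Most of the MYC network fell. Of 12 genes 3 were higher and 9 lower. MYCN, the abundant family member in H69, stood at 1607, 1514 and 1561 CPM in H69 and 917, 936 and 903 CPM in H69M (-0.76 ± 0.04 log2). MYC stood at 3.38, 3.47 and 4.04 CPM in H69 and 6.88, 8.01 and 7.19 CPM in H69M (1.04 ± 0.12 log2), and MYCL at 0.483, 0.264 and 0.484 CPM in H69 and 0.854, 0.995 and 0.995 CPM in H69M. The partner MAX was higher by 0.16 ± 0.05 log2, a call lost without H69M replicate 1 (adjusted p = 0.0865). The 5 MXD, MXI1 and MNT repressors, which compete for MAX, each fell by 0.35 to 0.78 on the log2 scale. MNT changed by -0.78 ± 0.07 log2 and MXI1 by -0.70 ± 0.07 log2.

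Receptors and ligands of growth factors had 40 of 66 tested members higher and 19 lower, 34 and 9 of them by at least 2-fold, with 8 switched on. EGFR was at 0 in H69 and stood at 19.96, 23.04 and 20.8 CPM in H69M, PDGFRB was at least 295-fold higher, and the EGFR ligand EREG at least 67.1-fold. ERBB3 rose from 2.13, 2.76 and 3.07 CPM in H69 to 22.8, 24.2 and 23.6 CPM in H69M, FGFR1 from 22.2, 19.3 and 18.6 CPM in H69 to 99.4, 102 and 102 CPM in H69M, and the stem cell factor receptor KIT from 97.8, 99.9 and 106 CPM in H69 to 216, 220.4 and 218 CPM in H69M. IGF1 was switched off, falling from 2.41, 2.49 and 2.18 CPM in H69 to 1 count. MET, the receptor of hepatocyte growth factor, fell, at 218, 206 and 238 CPM in H69 and 113, 115 and 106 CPM in H69M (-0.99 ± 0.06 log2). Its ligand HGF was low and rose, at 0.563, 0.529 and 0.242 CPM in H69 and 1.26, 1.44 and 1.26 CPM in H69M. Around this pair, with 9 of 17 tested higher and 5 lower, the plasminogen activator PLAT rose from 0.483, 0.831 and 0.807 CPM in H69 to 19.7, 23.1 and 20.5 CPM in H69M and its relative PLAU by 1.46 ± 0.08 log2. The inhibitors of HGF activation SPINT1 and SPINT2 changed by -0.46 ± 0.06 and -0.46 ± 0.05 log2. MST1, MST1R and STAT3 were not called.

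Outputs of MAPK signalling were mostly higher, with 17 of 32 tested higher and 7 lower. These shares were 53.1% and 21.9%, against 35.9% and 36.6% of all genes tested. FOSL1, an AP-1 subunit of mesenchymal cells, stood at 0, 0.151 and 0.0807 CPM in H69 and 24.4, 25.9 and 21.9 CPM in H69M, the ERK-responsive factor ETV5 at 0.161, 0.189 and 0 CPM in H69 and 27.6, 26.6 and 26.6 CPM in H69M, and the phosphatase DUSP5 at 0.604, 0.415 and 0.323 CPM in H69 and 8.94, 7.86 and 6.81 CPM in H69M. FOS changed by -0.91 ± 0.14 log2, and EGR1 was not called (adjusted p = 0.73). The AP-1 letters TGANTCA were in 10.5% of promoter windows of genes switched on, in 7.16% of genes called higher at least 2-fold, in 6.24% of those called lower at least 2-fold and in 4.70% of all.

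Notch genes had 18 of 31 higher and 12 lower (58.1% and 38.7%, against 35.9% and 36.6% of all genes tested). The receptors NOTCH3 and NOTCH1 stood at 0.0402, 0.113 and 0.0807 CPM in H69 and 19.2, 25.1 and 26.4 CPM in H69M and at 2.05, 2.08 and 2.18 CPM in H69 and 14.6, 17.3 and 19.1 CPM in H69M, and the target HES1 at 9.22, 9.67 and 10.3 CPM in H69 and 35.2, 33.3 and 32.9 CPM in H69M (1.81 ± 0.08 log2). The ligand DLL1 changed by -1.57 ± 0.07 log2 and the target HEY2 by -1.63 ± 0.07 log2, and RBPJ was not called (adjusted p = 0.2). TGF-beta, activin and BMP genes had 21 of 49 tested higher and 24 lower (42.9% and 49.0%). TGFB1 rose from 4.83, 4.003 and 5.08 CPM in H69 to 51.2, 63.8 and 59.9 CPM in H69M. BMP7 fell, at 83.1, 85.7 and 94.3 CPM in H69 and 2.52, 3.38 and 3.14 CPM in H69M (-4.86 ± 0.10 log2), while BMP5 rose by 5.67 ± 0.19 log2. WNT genes had 26 of 48 tested higher and 18 lower (54.2% and 37.5%). WNT16 fell from 12.3, 15.1 and 16.2 CPM in H69 to 0.27, 0.199 and 0.497 CPM in H69M, the stem cell receptor LGR5 changed by -1.54 ± 0.07 log2, and the antagonist DKK1 was at 0 in H69 and at least 43.6-fold higher.

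Chromatin genes moved by small amounts. None of the 37 polycomb, H3K27 and DNA methylation genes was called and changed at least 2-fold, against 23.8% of all genes tested, and 9 were higher and 16 lower. EZH2, the H3K27 methyltransferase, stood at 307, 294 and 307 CPM in H69 and 237, 251 and 229 CPM in H69M (-0.34 ± 0.05 log2), and DNMT1 changed by -0.22 ± 0.05 log2. The largest change was in KMT2C, an enhancer H3K4 methyltransferase, at -0.99 ± 0.07 log2. HOX and related homeobox genes, classic polycomb targets, had 10 of 34 tested higher and 20 lower. These shares were 29.4% and 58.8%, against 35.9% and 36.6% of all genes tested. HOXC13 rose from 0.0402, 0.113 and 0.0807 CPM in H69 to 2.47, 2.59 and 2.26 CPM in H69M, HOXB9 from 51.2, 50.3 and 60.7 CPM in H69 to 142, 161 and 138 CPM in H69M, and HOXD8 changed by -1.58 ± 0.22 log2.

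Proliferation genes differed by small amounts. Of 52 cell cycle and replication genes 17 were higher and 22 lower, or 19 and 17 with library totals alone as scaling. The first counts were 32.7% and 42.3% of the list, near the 35.9% and 36.6% of all genes tested. Only 2 genes of the list, E2F7 (-1.16 ± 0.06 log2) and CCNE1 (-1.01 ± 0.07 log2), were called and changed at least 2-fold, both lower. MKI67 was not called (adjusted p = 0.353). CDKN1A (p21), an inhibitor of cyclin-dependent kinases, fell from 503, 513 and 538 CPM in H69 to 141, 150.8 and 146 CPM in H69M (-1.83 ± 0.05 log2). MDM2 changed by -1.14 ± 0.06 log2. RB1 rose by 0.37 ± 0.08 log2, CDKN2A by 0.30 ± 0.08 log2, and CCND1 changed by -0.35 ± 0.07 log2.

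Cell death genes had 18 of 38 tested members higher and 14 lower (47.4% and 36.8%, against 35.9% and 36.6% of all genes tested). Death receptors and inflammatory caspases were among the higher genes. FAS stood at 0.241, 0.264 and 0.0807 CPM in H69 and 4.49, 4.13 and 3.44 CPM in H69M, the TRAIL receptor TNFRSF10B at 0.161, 0.151 and 0.0807 CPM in H69 and 14.8, 15.1 and 14.4 CPM in H69M, CASP4 at 0.0805, 0.151 and 0 CPM in H69 and 12.7, 14.98 and 13.01 CPM in H69M, and CASP1 was at 0 in H69 and at least 32.02-fold higher. The pyroptosis executor GSDMD stood at 0.121, 0 and 0.0807 CPM in H69 and 1.75, 2.34 and 2.26 CPM in H69M, and DFNA5 was 143-fold higher (95% limits from counting error 48.7 and 697). Members of the BCL2 family were among the lower ones. BCL2, which blocks mitochondrial cell death, stood at 131, 131 and 125 CPM in H69 and 48.2, 47.9 and 46.9 CPM in H69M (-1.44 ± 0.05 log2). The BH3-only activators BCL2L11 (BIM), BBC3 (PUMA) and HRK changed by -1.71 ± 0.07, -1.89 ± 0.08 log2 and -3.85 ± 0.19 log2. MCL1 was the family member that rose (0.35 ± 0.06 log2).

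In the chemotherapy and DNA repair list, 18 of 33 tested were higher and 9 lower (54.5% and 27.3%). SLFN11, whose product stalls damaged replication forks, was low in both lines and rose, at 0.443, 0.453 and 0.242 CPM in H69 and 1.62, 1.29 and 1.61 CPM in H69M (1.88 ± 0.31 log2). The drug exporter ABCC3 rose by 4.07 ± 0.23 log2. GSTP1, a glutathione transferase, fell, at 195, 198 and 215 CPM in H69 and 44.99, 42.6 and 44.3 CPM in H69M (-2.20 ± 0.07 log2). In the redox list 16 of 39 were higher and 16 lower, 41.0% each way, near the 35.9% and 36.6% of all genes tested. The cystine transporter SLC7A11 changed by -1.23 ± 0.12 log2, GPX4, the guard against lipid peroxidation, by -0.42 ± 0.07 log2, and the iron store FTH1 by -0.65 ± 0.07 log2. GPX8, of the endoplasmic reticulum, stood at 0.362, 0.604 and 0.404 CPM in H69 and 33.04, 30.2 and 32.9 CPM in H69M.

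Metabolic lists differed in direction. Serine, one-carbon and ATF4 amino acid response genes had 5 of 31 tested higher and 21 lower, with a median log2 fold change of -0.33. ASS1, which makes argininosuccinate for arginine synthesis, stood at 108, 113 and 119 CPM in H69 and 17.9, 18.3 and 17.7 CPM in H69M (-2.65 ± 0.06 log2). ASNS, the asparagine synthetase, changed by -0.95 ± 0.06 log2, and ATF5 by -1.51 ± 0.07 log2. SLC1A5, a glutamine carrier, was the only member that rose 2-fold, at 20.7, 20.4 and 21.8 CPM in H69 and 58.4, 63.4 and 58.9 CPM in H69M (1.53 ± 0.07 log2). Cholesterol and fatty acid synthesis genes had 24 of 32 higher and 2 lower, by small amounts (median 0.48). SCD, which desaturates fatty acids, stood at 342, 357 and 395 CPM in H69 and 760.5, 817 and 784 CPM in H69M (1.11 ± 0.05 log2). FDFT1, the first enzyme of the sterol branch, rose by 0.92 ± 0.05 log2. Glycolysis genes had 21 of 33 tested higher and 6 lower. The lactate exporter SLC16A3 (MCT4) rose from 1.41, 1.59 and 1.13 CPM in H69 to 21.7, 20.5 and 24.2 CPM in H69M and HK2 by 2.16 ± 0.09 log2, while GAPDH was not called (adjusted p = 0.525).

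Some families chosen by their gene symbols leaned lower. KLF transcription factors had 10 of 14 tested lower and 1 higher, with a median log2 fold change of -0.47. KLF13 stood at 506, 513 and 519.5 CPM in H69 and 282, 305 and 296 CPM in H69M (-0.80 ± 0.05 log2) and KLF9 at 48.6, 50.8 and 51.5 CPM in H69 and 21.3, 20.4 and 19.1 CPM in H69M (-1.31 ± 0.07 log2). KLF2, a factor of endothelial and resting lymphoid cells, was the 1 that rose, at 0.0402, 0.151 and 0 CPM in H69 and 2.38, 2.39 and 2.33 CPM in H69M, and KLF6, KLF12 and KLF16 were not called. Zinc finger genes named ZNF had 251 of 450 tested lower and 69 higher (median -0.27). Histone genes had 16 of 36 lower and none higher by edgeR, and none was higher at an unadjusted p under 0.05. Without H69 replicate 2, 1 histone gene was called higher. Cytosolic ribosomal protein genes had 37 of 80 tested lower and 6 higher, none by 2-fold. The higher count was 2 without H69 replicate 1 and 10 without H69 replicate 3. Many genes of these families are near copies of each other, which makes single members uncertain.

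The 10 genes with the largest gains in CPM, which also grow with transcript length, shared only SPARC with the 10 of the largest fitted rise among genes at or above the median level. They were HSP90AA1, PEG10, COL1A1, COL1A2, ACTB, ACTG1, CDH2, FLNA, SPARC and ITGA5. HSP90AA1, the stress-inducible chaperone, stood at 4478, 4597 and 4971 CPM in H69 and 6122, 6291 and 6101 CPM in H69M, and PEG10, an imprinted gene of retroviral origin, at 1336, 1274 and 1500.1 CPM in H69 and 2663, 2746 and 2680.2 CPM in H69M. The largest losses in CPM were in MAP1B, EEF1A1, IGFBP5, EEF2, HSPA8, INPPL1, MYCN, NR2F1, HNRNPA2B1 and MALAT1. Gains and losses were ranked by mean CPM whether or not a gene was called. MAP1B, a neuronal microtubule protein, stood at 4918, 4573 and 5316 CPM in H69 and 2977, 3143 and 3293 CPM in H69M, and IGFBP5 at 1902, 1798 and 1993 CPM in H69 and 1082, 1167 and 1141 CPM in H69M. The nuclear RNAs MALAT1 and NEAT1 varied within groups. MALAT1 stood at 1061, 1066 and 441 CPM in H69 and 314, 331 and 498 CPM in H69M and the groups overlapped, and NEAT1 stood at 376, 269 and 113 CPM in H69 and 10.7, 9.21 and 11.2 CPM in H69M without overlap. For both RNAs H69 replicate 3 was the lowest H69 library.

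Among genes with an average level at or above the median of those tested, the largest falls were led by ADCY1, a calcium-stimulated adenylyl cyclase of neurons, at 236, 226 and 249 CPM in H69 and 0.809, 0.647 and 0.497 CPM in H69M (-8.51 ± 0.11 log2). OLFM1, a secreted neuronal glycoprotein, stood at 89.7, 85.2 and 94.5 CPM in H69 and 4.99, 6.17 and 5.32 CPM in H69M, and the homeobox factor MSX2 at 83.5, 80.3 and 91.7 CPM in H69 and 9.57, 9.90 and 8.07 CPM in H69M. IFI30, a lysosomal thiol reductase that is induced by interferon gamma, fell against the trend of its class, at 80.4, 85.6 and 92.1 CPM in H69 and 9.39, 11.1 and 9.60 CPM in H69M (-3.10 ± 0.09 log2). The formin FHOD3, an actin regulator, fell from 155, 150.7 and 172 CPM in H69 to 21.3, 21.9 and 20.9 CPM in H69M, the kainate receptor subunit GRIK3 changed by -2.77 ± 0.08 log2, and BHLHE40, a factor of the circadian and hypoxia response, by -2.77 ± 0.10 log2. ZNF704 and POF1B changed by -3.24 ± 0.07 and -3.18 ± 0.08 log2.

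Markers of other cell types were read beside these groups. Of 24 leukocyte markers only 4 had enough counts to be tested, 2 higher and 1 lower, and the summed level of the list was 3.71 to 4.59 CPM in H69 and 5.03 to 5.36 CPM in H69M. Fibroblast and stromal markers, which overlap with the matrix lists, had 10 of 11 tested higher, with summed levels of 678.3 to 709 and 3105 to 3347 CPM. The fibroblast markers LUM and FAP stood at 0, 0.0378 and 0.0807 CPM in H69 and 25.9, 21.9 and 21.5 CPM in H69M and at 0.0402, 0 and 0.0807 CPM in H69 and 11.4, 8.46 and 10.2 CPM in H69M, while DCN, the decorin of most fibroblasts, stood at 0.0402, 0.0755 and 0.0807 CPM in H69 and 0.315, 0.0995 and 0.268 CPM in H69M. The DCN call was lost without H69 replicate 1, H69M replicate 1 or H69M replicate 3 (adjusted p = 0.0684, 0.0677 and 0.05). Endothelial markers had 7 of 13 tested higher and 2 lower, with CDH5, EMCN, ESAM and ANGPT1 not called. The 7 rose and the 2 fell by at least 2-fold each, and 4 of the 7 were switched on. The summed level of the list, 52.7 to 59.3 CPM in H69 and 49.4 to 50.6 CPM in H69M, does not show these changes. Lung epithelial markers had 3 of 6 tested lower and the rest not called, and the alveolar SFTPB had 1 count in all H69 libraries and none in H69M. The part of other cells in the matrix and interferon results was not tested.

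Some genes that rose lay next to each other, which was examined after the calls had been seen. When 15100 tested genes were put in the order of the RefSeq GRCh38.p14 annotation, 20 runs of at least 5 neighbours were all called higher and at least 2-fold, and 4 such runs were lower. The run around YAP1 held 8 genes from ARHGAP42 to BIRC3. BIRC3, an inhibitor of apoptosis, stood at 0.0805, 0.264 and 0.323 CPM in H69 and 5.84, 5.32 and 7.54 CPM in H69M (4.90 ± 0.28 log2), and the ion channel gene TRPC6 was at 0 in H69 and at least 21.9-fold higher. Farther along the protease genes MMP7, MMP1, MMP3 and MMP13 were higher, while MMP10 and the noncoding WTAPP1, between MMP7 and MMP1, were lower (-1.60 ± 0.11 and -2.48 ± 0.50 log2), and there followed a run of 6 from DYNC2H1 to GRIA4, which holds CASP4, CASP1 and CARD16. On the other side the first gene, CNTN5, a neuronal adhesion gene, fell from 6.04, 7.33 and 6.62 CPM in H69 to 0.27, 0.149 and 0.191 CPM in H69M. CASP1 and CARD16 are near copies, so their split is uncertain.

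**Figure D5:**
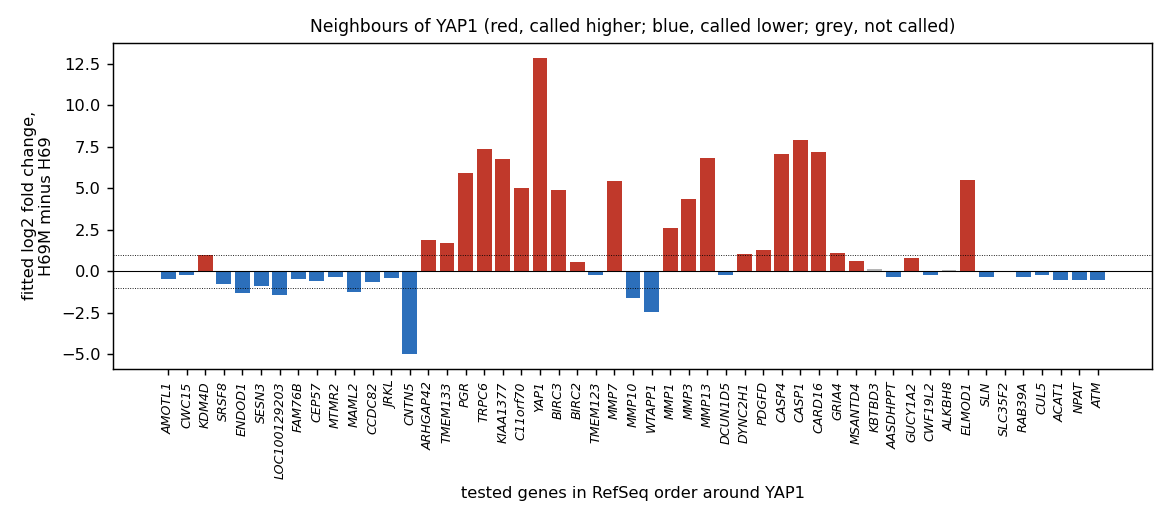
Fitted log2 fold change of H69M minus H69 (bars) for tested genes in RefSeq order around YAP1; red is called higher, blue called lower, grey not called, and dotted lines mark 2-fold. All 8 genes from ARHGAP42 to BIRC3 are higher and 2-fold, while the genes from CNTN5 to SRSF8 on the left are all lower.

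Further runs matched known gene clusters. A run of 6 in the class II region of the MHC held HLA-DOB, TAP2, PSMB8, TAPSAR1, TAP1 and PSMB9. The guanylate-binding proteins, antiviral GTPases, formed a run of 7, in which GBP1 rose from 3.34, 4.003 and 3.79 CPM in H69 to 28.1, 29.95 and 26.9 CPM in H69M and GBP2 from 0.0402, 0.227 and 0.0807 CPM in H69 to 8.36, 8.81 and 8.26 CPM in H69M. The run with SERPINB1, SERPINB9 and SERPINB6, inhibitors of granzyme and neutrophil proteases, also held 7 genes, and SERPINB9 stood at 0.0805, 0.0378 and 0.0807 CPM in H69 and 8.27, 9.95 and 8.49 CPM in H69M. A run of 7 protocadherin beta genes, with a median log2 fold change of 1.80, is made of near copies. The longest lower run was the metallothionein cluster from MT2A to MT1X, with 6 genes and a median of -6.71. A lower run of 5 held KCNJ11 and ABCC8, the paired subunits of the potassium channel that couples metabolism to secretion in beta cells. KCNJ11 stood at 31.2, 33.6 and 28.1 CPM in H69 and 4.63, 4.38 and 4.51 CPM in H69M, and ABCC8 at 23.1, 19.9 and 18.97 CPM in H69 and 0.899, 0.697 and 0.689 CPM in H69M.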

How the data were processed

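RNA from unsorted H69 and H69M was made into exome-capture libraries from 250 ng of total RNA, per the labels' protocols. The deposited values are whole-number counts per gene, which the authors made with alignment by STAR 2.6.1 to hg19, per the submitters' processing notes. Which program counted reads, and how it used strand and shared reads, is not given in the sources used here. From the deposited counts, genes were filtered with edgeR 4.0.16 (filterByExpr, minimum count 10), scaled by TMM and tested by a quasi-likelihood F-test on all 12 libraries of the H69 table (4 groups, R 4.3.3), with the contrast H69M minus H69 and Benjamini-Hochberg adjustment over 15445 genes at 0.05. DESeq2 1.42.0 and limma 3.58.1 served as alternatives, with other scalings, filters, a replicate block and each library left out. On simulated counts for this comparison (15157 genes), the fit recovered 93% of 2-fold and 77.6% of 1.5-fold changes and called 9 unchanged genes. Only 100 and 98 tested genes were changed there, in both directions. The simulation therefore cannot check scaling or false calls where most genes differ, as they did here. Library totals of 12814594 to 26834561 counts set the precision.

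A gene was switched on or off with at most 3 counts summed over the silent group and a mean of at least 1 CPM in the other; folds against a group at 0 use a floor of 3 counts over the group. Fold limits with 1 to 3 counts are 95% exact limits for counting error. Members and the 50 gene lists and 18 symbol families were chosen with earlier results of these data known. Named genes are a panel of SCLC and MHC genes, in each list the 6 largest called changes, the 3 most abundant members and members not called where few, the 10 largest rises, falls, gains and losses over all genes, and the 12 most abundant genes switched on and off. Genes named beyond these, with the neighbour runs, metal response letters and the metallothionein set, were chosen after their values were seen. Motifs were searched in the 12042 RefSeq GRCh38.p14 promoter windows that matched by symbol. Sorted fractions entered the fit and are otherwise shown only as means. Some genes are not reported here, and the tables of the other lines were not used here.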

Additional observations from a re-analysis of the deposited data

How the results depend on the processing

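The number of genes called was 10614 to 11636 across scaling by DESeq2 size factors or library totals, no filter, the DESeq2 and limma-voom tests, and a fit on only the compared groups, against 11196 reported. With a minimum count of 100, 12559 genes were tested, 9464 were called and 2323 were called and at least 2-fold. Leaving out each library in turn gave 10692 to 11255 genes called, 5278 to 5561 higher, 5365 to 5694 lower and 3675 to 3808 at 2-fold. Genes switched on numbered 104 with 0 counts required in H69, 84 at a mean of 5 CPM, and 230 to 305 with a library left out. Genes switched off numbered 16, 7 and 44 to 69. Not every named gene was tested in every alternative. No named gene reversed where it was tested, and of 301 called genes named, 298 kept their call wherever they were tested. The exceptions were EPCAM, MAX and DCN. Genes reported as not called that were called without H69 replicate 3 were APOL2, CDH5, COL2A1, GAPDH, IKBKB, KLF12, MAP3K14, MST1, MST1R, SOX4 and STAT3. Without H69 replicate 1 they were MT3, MYL6, PSMB10, RXRA and TAGLN3, and without H69 replicate 2 HLA-F, RBPJ and ROBO1. Without an H69M replicate they were CDH5, COL2A1, HLA-F, MST1, PSMB10, RSAD2 and TLR3. Several of them, with LAMB1, ACTN4, SOX2 and TGFB2, were also called under another scaling, filter or test.

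With a minimum count of 100, which leaves fewer members tested, cytokines called higher went from 20 to 11, endothelial markers from 7 to 3 and leukocyte markers from 2 to 1. The same minimum took the members called lower from 8 to 5 in collagen chains, from 7 to 4 in MAPK outputs, from 6 to 3 in glycolysis, from 6 to 2 in cytokine receptors, from 16 to 7 in histones, from 8 to 4 in retinoid genes, from 4 to 2 in interferon-stimulated genes, from 3 to 1 in complement genes, from 2 to 1 in collagen enzymes and endothelial markers, and from 1 to 0 in leukocyte markers. A fit on only the compared groups gave 1 cholesterol gene lower in place of 2, as did leaving out H69 replicate 3, which gave 5 NF-kB genes lower in place of 3. Without a filter 1 lung epithelial marker was higher and 6 were lower. The direction held by more members was not stable for lists near balance, among them regulators of the epithelial-mesenchymal transition, granins and the cell cycle list.

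The labels do not say whether replicate numbers pair the libraries. The correlation of deviations of same-numbered H69 and H69M libraries was -0.0445, -0.164 and -0.132. For libraries of different numbers it was -0.0452 to 0.152. Same-numbered libraries were thus no more alike than others, which does not settle how they were prepared. With the replicate block in the fit 10915 genes were called, 5412 higher and 5503 lower, and 3645 at 2-fold, and with the block and only the compared groups 9916 were called.

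Depth limits the statement for genes at 0. A floor of 3 counts over a group was 0.0471 CPM in H69 and 0.0438 CPM in H69M, so a gene below it cannot be called absent. Intervals and floors cover counting error only. The labels name no culture, passage or batch, and H69 replicate 3 was the shallowest library.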

Other observations

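Retinoid, ectonucleotide and prostaglandin genes changed in both directions, with 14 of 23 tested members higher and 8 lower. Retinoids act through RAR and RXR receptors after binding to carrier proteins in the cell. CRABP2, which carries retinoic acid to its receptor, stood at 3.70, 3.17 and 4.28 CPM in H69 and 90.7, 98.7 and 88.1 CPM in H69M (4.68 ± 0.11 log2), and its relative CRABP1 had no count in H69M and was at least 25.6-fold lower. RARG rose by 3.03 ± 0.13 log2, while RXRG fell from 40.7, 38.1 and 45.8 CPM in H69 to 1.26, 1.69 and 1.07 CPM in H69M (-4.96 ± 0.13 log2). RXRA was not called (adjusted p = 0.0629, or 0.0326 with a replicate block and only the compared groups). The adenosine receptor ADORA2B stood at 0.402, 0.566 and 0.242 CPM in H69 and 12.8, 13.8 and 13.2 CPM in H69M. The prostaglandin receptor PTGER2 stood at 0.161, 0.151 and 0.161 CPM in H69 and 3.33, 2.99 and 3.02 CPM in H69M. For each of these genes the libraries of the 2 lines did not overlap.

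Genes of the MAGE family, many of which are normally limited to the germline, had enough counts to be tested in 12 of 34 cases. Of these 6 were higher and 3 lower. MAGEA3 changed by -0.25 ± 0.06 log2 and MAGEA11 by -0.67 ± 0.08 log2. MAGEB2 was at 0 in H69 and stood at 4.63, 4.28 and 4.36 CPM in H69M, which is at least 93.9-fold higher. MAGEA2, MAGEA4 and MAGEA12 were not called. MAGEA genes are near copies of each other, so their split is uncertain.

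Small shifts also extended over long stretches of neighbouring genes, chosen after the calls had been seen. With a rolling median over 25 genes in RefSeq order, 13 stretches of at least 20 genes lay lower and 6 higher by over 0.45 on the log2 scale. The longest lower stretch, from MED22 to NPDC1, held 62 tested genes, of which 51 were called lower and 3 higher (median -0.57). That from HRAS to KCNQ1OT1 held 44 with 29 lower and 8 higher.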
